A study of Mus musculus with 2 samples.

Results

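Natural killer (NK) cells and group 1 innate lymphoid cells of the mouse intestine were described here in single-cell RNA profiles of 2 libraries. The butyrate library came from a wild-type mouse on a 1% butyrate diet, and the RA library from a wild-type mouse of the CIA (collagen-induced arthritis) group on standard chow. Each library held the dissociated whole intestine of 1 mouse, and whether the mouse on butyrate was arthritic as well is not given in the sources used here, nor are strain, age and sex. Cells of a library share a mouse, so no test between the groups was possible, and each difference compares 1 animal with 1 animal. Fewer cells of a state and less RNA per cell cannot be told apart in the summed levels below.

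Cells were chosen by their own transcripts, counted as unique molecular identifiers (UMIs). Kept barcodes had 500 UMIs or more, 250 genes or more and no more than 25% of UMIs from mitochondria. It was a member when Ncr1, Klrb1c and Klre1 together had at least 2 UMIs, Cd3d, Cd3e and Cd3g together had at most 1, and Il22, Il23r, Cd79a and Epcam had 0. This gave 75 cells of 15156 kept barcodes, of which 39 were butyrate cells (of 8247) and 36 were RA cells (of 6909). The members held 233471 UMIs in the butyrate library, with 2959 to 11206 per cell and a median of 5562, and 267331 UMIs in the RA library, with 3766 to 28961 per cell and a median of 5673. Median mitochondrial shares were 1.84% in butyrate members and 2.51% in RA members. Of the kept barcode sequences, 19 occurred in both libraries. No sequence was a member in both, and 2 of the RA members' sequences were also kept, as other cells, in the butyrate library.

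NK cells kill infected or transformed cells by releasing perforin and granzymes, and they secrete interferon gamma and chemokines. Group 1 innate lymphoid cells make the same interferon but tend to stay in tissues and to kill less. In mice, both depend on the T-box factor T-bet (Tbx21), while its relative Eomes (Eomesodermin) is a mark of NK cells and is largely absent from classical group 1 innate lymphoid cells. Group 3 innate lymphoid cells secrete interleukin-22.

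The promoters of 3 genes that the results turn on are shown because the T-box and Runx factors of this lineage bind short DNA motifs. Xcl1 encodes the chemokine lymphotactin, Gzma encodes granzyme A, and Ncr1 encodes the activating receptor NKp46 that chose most of the cells. The sequences are from RefSeq (GRCm38.p6) and run from 250 bases before to 50 bases after the start. Capitals mark the T-box core GGTGTG or its complement CACACC and the Runx core TGTGGT or its complement ACCACA.
Xcl1 (chr1:164935473-164935772, minus strand): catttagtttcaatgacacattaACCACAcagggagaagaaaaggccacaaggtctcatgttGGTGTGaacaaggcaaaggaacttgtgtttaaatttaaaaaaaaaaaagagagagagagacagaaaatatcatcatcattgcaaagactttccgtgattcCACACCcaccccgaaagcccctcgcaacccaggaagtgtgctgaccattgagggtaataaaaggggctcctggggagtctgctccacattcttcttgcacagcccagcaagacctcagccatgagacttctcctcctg
Gzma (chr13:113100932-113101231, minus strand): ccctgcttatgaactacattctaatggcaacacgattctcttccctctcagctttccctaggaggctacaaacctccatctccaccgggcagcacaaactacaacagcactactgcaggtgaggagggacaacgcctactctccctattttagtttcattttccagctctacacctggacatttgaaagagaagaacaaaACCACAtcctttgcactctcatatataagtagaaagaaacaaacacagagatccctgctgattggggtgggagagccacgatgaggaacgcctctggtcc
Ncr1 (chr7:4337465-4337764, plus strand): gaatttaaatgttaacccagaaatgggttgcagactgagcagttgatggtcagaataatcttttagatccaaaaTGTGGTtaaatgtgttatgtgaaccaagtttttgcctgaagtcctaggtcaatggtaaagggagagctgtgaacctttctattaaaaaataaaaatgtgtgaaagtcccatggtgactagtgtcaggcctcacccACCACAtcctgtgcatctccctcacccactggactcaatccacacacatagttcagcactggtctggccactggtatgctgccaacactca
The Xcl1 promoter held 2 matches to the T-box core and 1 to the Runx core, the Gzma promoter 0 and 1, and the Ncr1 promoter 0 and 2. Of 32851 mouse promoters of this length, 19.05% held a T-box core match and 16.76% a Runx core match, so such matches are common and only describe the letters.

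The label was first checked against the data. Ncr1 was the gene that brought in most cells, with a UMI in 35 of 39 butyrate cells and 34 of 36 RA cells. Klre1, a lectin-like receptor chain of NK cells, was found in 23 butyrate and 16 RA cells, and Klrb1c, which encodes NK1.1, in 7 and 4. These 3 genes were used in the choice and are given as a description. Near the threshold, 8 butyrate and 8 RA members had exactly 2 UMIs of the 3 genes, and 14 butyrate and 10 RA barcodes with 1 UMI lay just outside. Cells just outside had 3400.5 CPM (UMIs per 1000000 of the summed total) of Xcl1 in the butyrate library and 2230.2 CPM in the RA library, against 4063 and 2722 CPM just inside, so the edge of the set is not sharp. On the T cell receptor complex, 3 butyrate and 2 RA members had 1 UMI of the Cd3 genes, and 2 butyrate and 1 RA barcodes with 2 UMIs lay outside.

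Genes not used in the choice were then read. Klrd1, the CD94 chain of the NKG2 receptors, had a UMI in all 39 butyrate cells and in 31 of 36 RA cells. Xcl1 had a UMI in 37 butyrate and 34 RA cells. Tbx21 had a UMI in 14 butyrate and 16 RA cells, with 89.9 and 119.7 CPM. Of the 12 T cell markers, 4 were at 0 in both libraries: Cd3e, which the choice restricted, and Cd8a, Cd8b1 and Cd6, which it did not. Transcripts of the T cell receptor beta constant regions were present, with Trbc1 in 30 cells of each library. Together the 12 T cell markers had 233 UMIs (998 CPM) in butyrate members and 176 UMIs (658 CPM) in RA members. Of 8 B cell markers, the summed UMIs were 6 in butyrate and 10 in RA members, with Cd79a set at 0 by the choice. For 8 epithelial markers they were 36 in butyrate and 99 in RA members, with Epcam set at 0 by the choice. All 4 eosinophil markers were at 0 in both.

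Of the RA members, 4 carried many transcripts of other tissues and are called the 4 foreign barcodes. They were recognised after the members were seen, by at least 20 summed UMIs of 7 adipocyte, stromal and hemoglobin genes, and they held 62256 UMIs, or 23.3% of all RA member UMIs. No butyrate member met this. The first had 28961 UMIs with 1677 of Cfd (adipsin, an adipocyte product) and 1552 of Fabp4 (the adipocyte fatty acid carrier), 0 of Ncr1 and 2 of Klre1. The second had 20311 UMIs, with 21 of the collagen gene Col3a1 and 67 of Egr1. The third had 6852 UMIs and also 21 of Col3a1, and the fourth had 6132 UMIs with 1222 of the hemoglobin gene Hbb-bs. The 6 fibroblast markers together had 231 UMIs in RA members and 1 without these 4 barcodes, against 1 in butyrate members. Ratios between the libraries are therefore given with and without them. Without them 32 RA cells with 205075 UMIs remained. Another RA barcode of 25445 UMIs was kept in both: it had 6 UMIs of Eomes and held 11 of the 18 RA UMIs of Top2a and 21 of the 22 of Ube2c, genes of dividing cells.

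**Figure D1:**
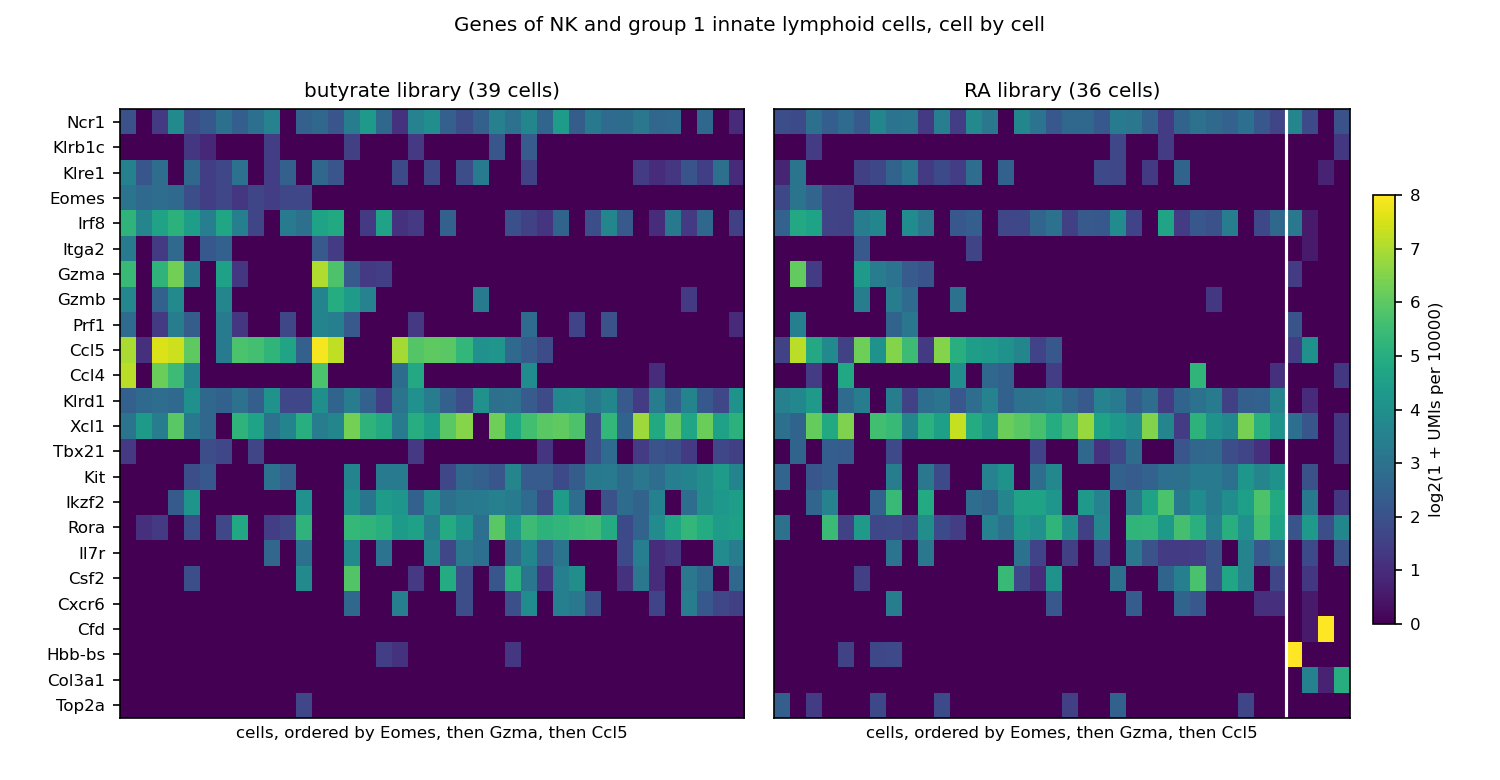
Each column is 1 cell and each row 1 gene, coloured by log2(1 + UMIs per 10000), with the 39 butyrate cells left and the 36 RA cells right, ordered by Eomes, then Gzma, then Ccl5. The order sets where Eomes and Gzma stand in each block. Xcl1 and Klrd1 run through nearly all cells, and the 4 RA barcodes right of the white line carry Cfd, Hbb-bs or Col3a1.

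The share of these cells among all kept barcodes did not differ between the animals beyond counting error. Members were 0.473% of kept barcodes in the butyrate library (95% interval 0.336% to 0.646%) and 0.521% in the RA library (0.365% to 0.721%). The ratio of butyrate to RA was 0.908 (0.562 to 1.47), and 1.02 (0.623 to 1.68) without the 4 barcodes. Intervals for shares are exact Clopper-Pearson, those for CPM exact Poisson and those for ratios exact conditional binomial, all at 95%. They cover counting error only, not the difference between mice. Those for CPM and for ratios of levels take each UMI as independent and leave out the spread between cells. They are therefore too narrow where a few cells hold many of the UMIs. Among T and innate lymphoid cells, members were 3.13% (39 of 1246) in the butyrate library and 5.11% (36 of 704) in the RA library. This was a ratio of 0.612 (0.379 to 0.991), an interval that leaves out 1. Without the 4 barcodes this ratio was 0.689 (0.420 to 1.14), an interval that takes in 1.

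Levels in the members are set beside those in 2 other kinds of lymphocytes of the same libraries. CD8 T cells had at least 2 UMIs of the Cd3 genes, a UMI of Cd8a or Cd8b1 and none of Cd4, and group 3 innate lymphoid cells were set by at least 2 UMIs of their own marker genes, Il22 and Il23r among them. Xcl1 (chr1:164931644-164935527, minus strand) stood at 3217 CPM in butyrate members, against 39.03 CPM in 288 CD8 T cells and 352 CPM in 12 group 3 innate lymphoid cells of that library. RA members had 2768 CPM of Xcl1, or 3549.9 CPM without the 4 barcodes, against 232 CPM in 135 CD8 T cells and 14.3 CPM in 13 group 3 innate lymphoid cells (22.4 CPM in the 8 without foreign content). The other sets were also picked by their transcripts, so these levels are a description. Xcl1 draws cross-presenting dendritic cells, which carry its receptor.

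Receptor and regulator genes of the lineage were also higher in members than in CD8 T cells of both libraries. Tyrobp (DAP12, an adaptor of activating receptors) had 917 CPM in butyrate members and 16.6 CPM in butyrate CD8 T cells, and 759 CPM in RA members and 72.8 CPM in RA CD8 T cells. Irf8, a transcription factor of NK and myeloid cells, had 831 and 18.2 CPM in butyrate members and CD8 T cells, and 494 and 40.8 CPM in RA members and CD8 T cells. Il12rb2, a receptor chain for interleukin-12, had 784 CPM in butyrate members against 141 in CD8 T cells, and 733 CPM in RA members against 80.8 in CD8 T cells. In each library the group 3 cells lay below the members for these 3 genes.

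Several genes often used for group 3 or tissue-resident lymphoid cells were also present in members. Kit, the stem cell factor receptor, had 501 CPM in butyrate members, 11.98 in CD8 T cells and 650.4 in group 3 cells. In the RA library it had 460.1 CPM in members, 51.5 in CD8 T cells and 128 in group 3 cells, or 402 in the 8 group 3 cells without foreign content. Csf2, the cytokine GM-CSF, had 488 CPM in butyrate members and 411 CPM in RA members, and at most 1.78 CPM in the CD8 T cells of either library, against 854 CPM in butyrate and 47.6 CPM in RA group 3 cells (179 in those without foreign content). Rora, a nuclear receptor of innate lymphoid cells, had 1765 CPM in butyrate members and 1496 CPM in RA members. CD8 T cells had 259 CPM of Rora in the butyrate library and 376 CPM in the RA library. Group 3 cells of the butyrate library had 3496 CPM, above the members. Those of the RA library had 789.6 CPM, below the members. Without foreign content, RA group 3 cells had 2906 CPM, above the 1677 CPM of RA members without such content. Of the 8 group 3 markers, only Kit passed 20 summed UMIs in the members.

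Granzymes stood differently in the 2 libraries. Gzma had 921 CPM in butyrate members against 188 CPM in butyrate CD8 T cells, but 187 CPM (239 without the 4 barcodes) in RA members against 2059 CPM in RA CD8 T cells. Gzmb was lower in members than in CD8 T cells of both libraries, at 299.8 against 1093 CPM in butyrate cells and 63.6 against 2299 CPM in RA cells. Prf1 (perforin) had 171 CPM in butyrate members against 46.0 in butyrate CD8 T cells, and 44.9 CPM in RA members against 44.4 in RA CD8 T cells.

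**Figure D2:**
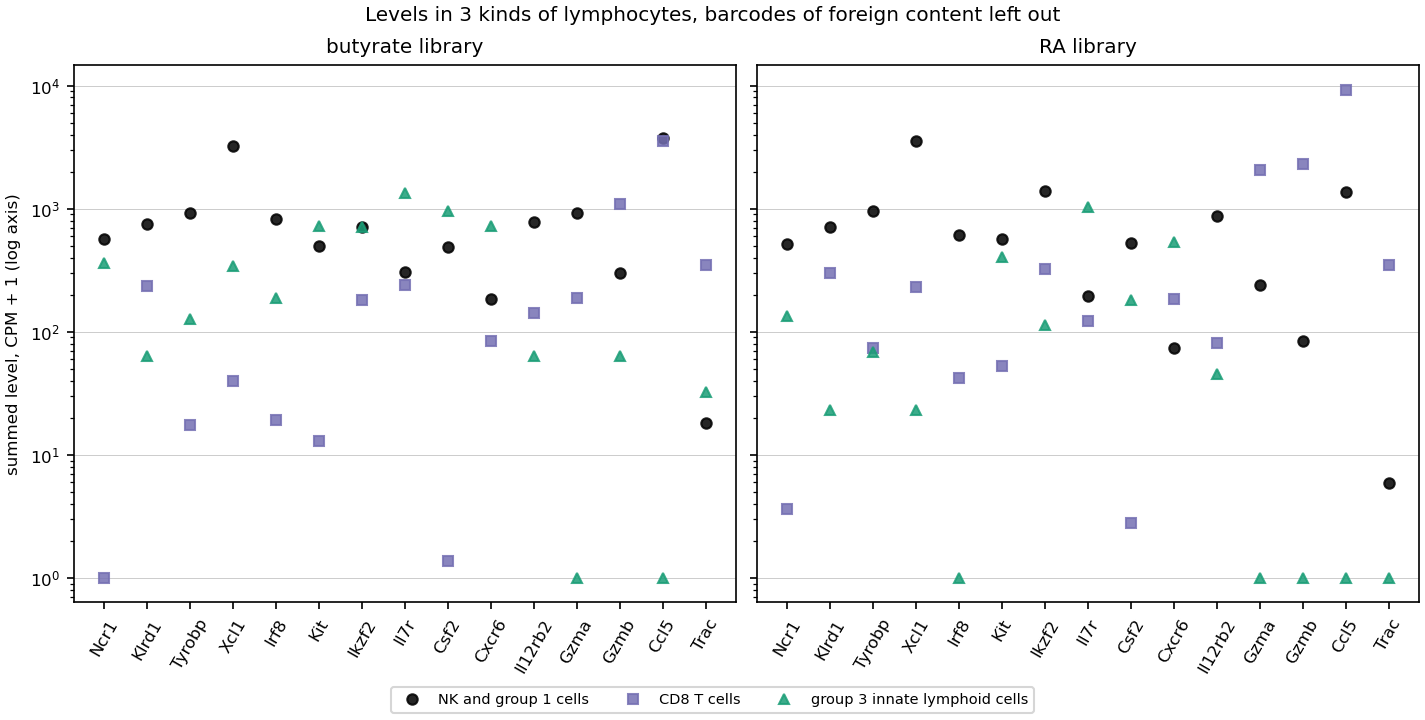
Summed CPM plus 1, on a log axis, of 15 genes in NK and group 1 innate lymphoid cells (circles), CD8 T cells (squares) and group 3 innate lymphoid cells (triangles), the butyrate library left and the RA library right, without barcodes of foreign content in members and group 3 cells. Xcl1 lies near 3217 CPM in butyrate members and 3549.9 CPM in RA members, far above the other sets, while Gzmb lies below CD8 T cells in both.

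The members were next split by Eomes. Eomes was not part of the choice, and its UMIs were found in 12 of 39 butyrate cells (30.8%, 17.0% to 47.6%) and in 5 of 36 RA cells (13.9%, 4.67% to 29.5%). The highest cell had 5 UMIs in the butyrate library and 6 in the RA library. The intervals overlap, and the ratio of shares was 2.22 (0.727 to 8.03), or 1.97 (0.646 to 7.14) without the 4 barcodes. With each cell thinned to 2000 UMIs, 5 of 39 butyrate cells and 2 of 36 RA cells had a UMI, a ratio of 2.31 (0.378 to 24.2), so a difference in this share was not detectable at this depth. In B cells, which should lack Eomes, the share was 0.109% in the butyrate library and 0.0321% in the RA library. Median depth was 4618 UMIs in butyrate and 4241 in RA B cells, against 5562 in butyrate and 5673 in RA members.

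Cells with and without an Eomes UMI had similar depth, with medians of 6060.0 and 5519 UMIs in the butyrate library and 5015 and 5680.0 UMIs in the RA library. Of 199 other list genes with at least 20 UMIs, 13 were at least 2-fold higher in cells with Eomes in both libraries and 22 were at least 2-fold lower in both. Over all 4000 genes with that many UMIs, the shares were 2.2% higher and 3.6% lower. Without the 4 RA barcodes the counts were 10 and 23, a setting for which the shares over all genes were not counted. The deep RA barcode gave 56.5% of the UMIs of the 5 RA cells with Eomes, so RA values are also given for the remaining 4 cells, set against cells without Eomes that exclude the 4 foreign barcodes.

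Higher with Eomes were Klra3, Irf8, Ccr2 and Gzma. The inhibitory Ly49 receptor gene Klra3 had 197 CPM with and 12.7 CPM without Eomes in butyrate cells, and 222 and 35.99 CPM in RA cells, or 102 CPM with Eomes once the deep barcode was left out. Klra7 had 170.4 and 38.2 CPM in butyrate cells, but all 10 UMIs of the RA cells with Eomes were in the deep barcode. The Ly49 genes are near-identical copies whose number differs between mouse strains, so the split of their reads between genes is uncertain.

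Irf8 had 1559.8 CPM with and 477 CPM without Eomes in butyrate cells, a ratio of 3.27 (2.43 to 4.42), and 866 and 418 CPM in RA cells, a ratio of 2.07 (1.39 to 3.04). The RA ratio of Irf8 was 1.59 when the foreign barcodes alone were left out and 2.54 when the deep barcode was left out as well. Ccr2, a receptor for inflammatory monocyte chemokines, had 406 and 95.4 CPM in butyrate cells and 199.9 and 85.5 CPM in RA cells, a RA ratio of 2.34 that was 1.78 without the foreign barcodes and 4.09 when the deep barcode was left out as well. Gzma had 1429 and 674 CPM with and without Eomes in butyrate cells and 622 and 99.0 CPM in RA cells, but single cells carried these levels. Of the 28 UMIs of the RA cells with Eomes 27 lay in 1 cell, and without it 24.4 CPM were left. Of the 106 UMIs of the butyrate cells without Eomes 70 lay in 1 cell, and without it 237 CPM were left. Gzmb did not show the same order, with 301 and 299 CPM with and without Eomes in butyrate cells, and 0 UMIs with and 17 UMIs without Eomes in RA cells.

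Of 13 group 1 innate lymphoid genes, 5 were at least 2-fold lower with Eomes in both libraries and 0 were higher. Over all 4000 genes, 3.6% were lower and 2.2% higher. Without the 4 barcodes the list had 7 lower and 0 higher. The genes in the next sentences were named because they were lower in both. Il7r, the interleukin-7 receptor that innate lymphoid cells need to survive, had 78.6 CPM with and 414 CPM without Eomes in butyrate cells, and 0 and 211 CPM in RA cells. Of all 75 cells, 35 had Il7r and 17 had Eomes, and 2 had both. Csf2 had 105 and 674 CPM in butyrate cells and 0 and 495 CPM in RA cells. Ikzf2 (Helios, an Ikaros-family regulator) had 275 and 916 CPM in butyrate cells and 178 and 1322.5 CPM in RA cells.

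The chemokine receptor Cxcr6, which holds lymphocytes in liver and gut, was at 0 in the 12 butyrate and 5 RA cells with Eomes, counts that allow up to 39.3 and 66.6 CPM. Without Eomes it had 274 CPM in butyrate cells and 72.0 CPM in RA cells. Cd200r1, an inhibitory receptor of group 1 innate lymphoid cells, was also at 0 in both sets with Eomes, under the same limits, and had 89.1 CPM in butyrate and 67.5 CPM in RA cells without it. The RA ratio intervals of Cxcr6 (0 to 1.28) and Cd200r1 (0 to 1.38) take in 1. For these genes the RA counts are too few to set a direction. Tmem176b had 13.1 and 331 CPM with and without Eomes in butyrate cells, and 0 and 225 CPM in RA cells. Il2ra and Il18r1, receptors for interleukin-2 and interleukin-18, were lower with Eomes in both libraries. Cd226, the receptor DNAM-1, had 26.2 and 414 CPM with and without Eomes in butyrate cells. In RA cells it had 1 UMI with and 23 UMIs without Eomes, and its ratio interval (0.00521 to 1.32) takes in 1.

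Some stress and dissociation genes also lay past 2-fold in this split. Over all 4000 genes, 3.6% were at least 2-fold lower with Eomes in both libraries. Of 12 heat shock genes, 3 were lower with Eomes in both libraries: Hspa1a and Hspa1b (inducible HSP70) and Dnajb1. Of 22 early response genes, 3 were lower in both, Dusp1, Fos and Atf3, and 1 of them, Dusp1, without the 4 barcodes. The others of both lists were not past 2-fold on the same side in both, and in butyrate cells Egr1, Dusp2 and Nr4a2 had ratios of 3.78, 9.89 and 2.17. Hspa1a had ratios of 0.0585 in butyrate cells and 0.132 in RA cells. Without the deep and the foreign barcodes the RA ratios were 0.252 for Hspa1a, 0.8603 for Fos and 1.17 for Atf3, so Atf3 no longer lay on the same side. Their part in the other differences was not tested.

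Kit fell outside the count because its RA ratio did not reach 2-fold with all cells. It had 157 CPM with and 668 CPM without Eomes in butyrate cells, a ratio of 0.235 (0.118 to 0.429), and 378 and 477 CPM in RA cells, a ratio of 0.792 (0.445 to 1.33). Of the 17 Kit UMIs of the RA cells with Eomes 13 lay in the deep barcode. Without the deep and the foreign barcodes the RA ratio was 0.327. Id2, the regulator that all innate lymphoid cells need, was close to even, at 2019 and 2157 CPM in butyrate cells and 1377 and 1457.5 CPM in RA cells.

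Detection was also counted in the same cells. Of the 75 cells, 48 had Kit and 51 had Ikzf2, and 40 had both. Csf2 was found in 32 cells, and 28 of these also had Kit. Gzma was found in 19 cells, and only 6 of these had Kit. Prf1 was also found in 19 cells, 13 of them with Gzma, and Gzmb in 15, 11 of them with Gzma. Ccl5 was found in 43 cells and in 16 of the 17 with Eomes. Detection depends on depth and on the level of each gene, so these counts are a description.

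**Figure D3:**
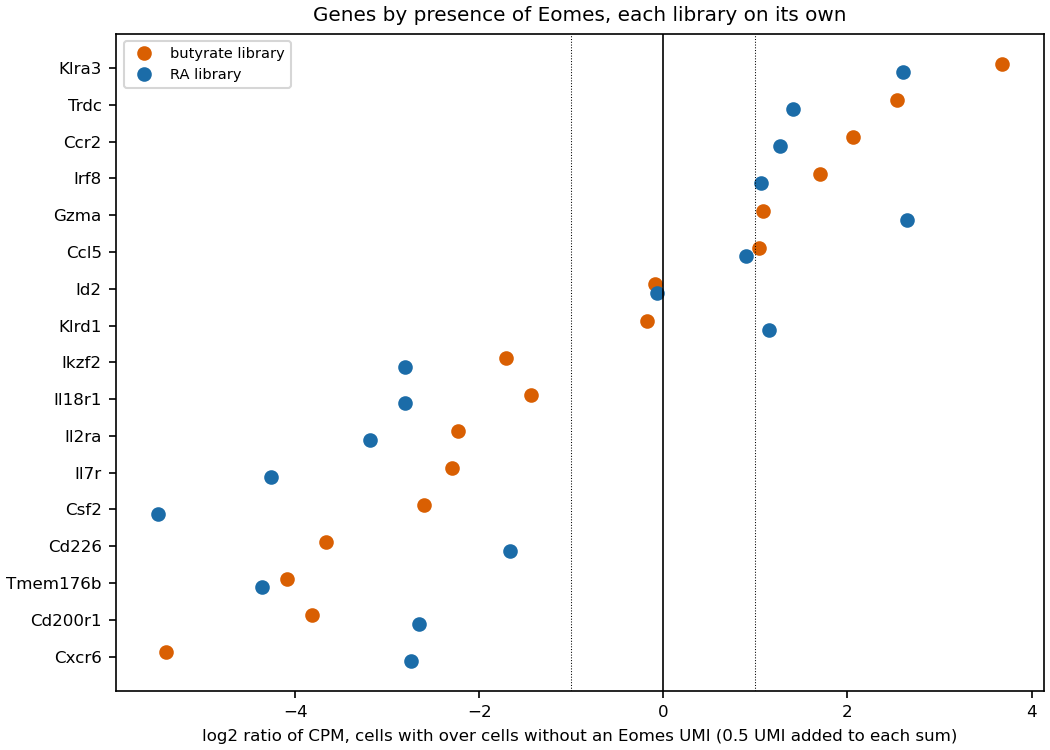
Each pair of points gives the log2 ratio of summed CPM in cells with over cells without an Eomes UMI, in the butyrate library (orange, upper) and the RA library (blue, lower), with 0.5 UMI added to each sum and dotted lines at 2-fold. Klra3, Ccr2 and Irf8 lie to the right and Il7r, Csf2, Tmem176b, Cd200r1 and Cxcr6 to the left in both libraries, while Id2 lies near 0.

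Between the animals, the 4 genes with the highest ratios of butyrate to RA were Ccl4, Gzma, Gzmb and Prf1, among genes with at least 50 summed UMIs and an interval that leaves out 1, and without the gene classes set aside by the rule for named genes. Among 1775 genes with at least 50 summed UMIs, 41 (2.31%) were at least 2-fold higher in butyrate cells and 52 (2.93%) at least 2-fold lower. Without the 4 RA barcodes the counts were 25 of 1539 (1.62%) and 20 (1.3%). With 1 mouse a group these counts describe the spread of ratios and are no count of changed genes.

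Ccl4 (MIP-1β, chr11:83662584-83664683, plus strand), a chemokine that draws T cells and monocytes, had the highest ratio among these genes. It had 233 UMIs, or 998 CPM (874 to 1135), in butyrate cells and 50 UMIs, or 187 CPM (139 to 247), in RA cells, a ratio of 5.34 (3.92 to 7.40) and 4.18 without the 4 barcodes. The UMIs lay in 9 cells of each library, and a single butyrate cell held 96 of the 233, so the number of cells was equal and a few butyrate cells held most of the excess.

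Gzma (granzyme A, chr13:113093825-113100981, minus strand) had 215 UMIs in 11 butyrate cells and 50 UMIs in 8 RA cells. The levels were 921 CPM (802 to 1053) and 187 CPM (139 to 247), a ratio of 4.92 (3.60 to 6.84). Its ratio was 3.85 without the 4 barcodes, and 2.79 when each remaining cell also had equal weight. The highest butyrate cell held 70 UMIs and the highest RA cell 27. In the CD8 T cells and the B cells, Gzma stood the other way: 188 CPM in butyrate against 2059 CPM in RA CD8 T cells, and a UMI in 0.630% of butyrate against 2.28% of RA B cells.

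Other granule genes lay on the same side. Gzmb, granzyme B, had 70 UMIs in 10 butyrate cells and 17 UMIs in 5 RA cells, a ratio of 4.71 (2.75 to 8.55) and 3.62 without the 4 barcodes. Prf1, the pore-forming protein, had 40 UMIs in 15 butyrate cells and 12 UMIs in 4 RA cells, a ratio of 3.82 (1.96 to 7.99) and 3.51 without them. For Prf1 the shares of cells were 38.5% (23.4% to 55.4%) in the butyrate library and 11.1% (3.11% to 26.1%) in the RA library, with 0.955% of butyrate and 1.09% of RA B cells as background. Thinned to 2000 UMIs, 10 butyrate and 4 RA cells had Prf1.

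Of 18 genes for granules and killing, 12 had at least 20 UMIs, and 10 of these were higher and 2 lower in butyrate cells, with a median log2 ratio of 0.81. Over all 4001 genes with at least 20 UMIs, 2178 (54.4%) were higher, and the median was 0.07. Without the 4 barcodes 7 of the 12 were higher, with a median of 0.52, against 1776 of 3531 (50.3%) and a median of 0.00 over all genes. Nkg7, a granule membrane protein, had 719.6 CPM in butyrate and 404 CPM in RA cells, a ratio of 1.78, or 1.42 without the 4 barcodes. Srgn, serglycin, the proteoglycan that packs granzymes, had 2219 CPM in butyrate and 1848 CPM in RA cells, and its ratio of 1.20 became 0.989 without them. Lamp1, a lysosome membrane protein, was lower, at 59.97 CPM in butyrate and 127 CPM in RA cells, with 14 of 34 RA UMIs in 1 cell, and its ratio of 0.471 became 0.723 (0.330 to 1.56) without the 4 barcodes.

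Chemokines and cytokines had 8 of 9 genes higher and a median of 0.70, or 0.39 with 5 of 9 higher without the 4 barcodes. Ccl5 (RANTES, chr11:83525778-83530518, minus strand) had 879 UMIs in 23 butyrate cells and 314 UMIs in 20 RA cells. The levels were 3765 CPM (3520 to 4022) and 1175 CPM (1048 to 1312), a ratio of 3.21 (2.81 to 3.66), and 2.74 (2.39 to 3.14) without the 4 barcodes or 2.01 with equal weight as well. The value with equal weight lies outside that interval, which leaves out the spread between cells. Per cell, Ccl5 ran from 0 over a median of 4.45 to 237.5 UMIs per 10000 in butyrate cells and from 0 over 1.80 to 144 in RA cells, so the groups overlapped over most of the range.

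Ccl3, close kin of Ccl4, had 347 CPM in butyrate and 168 CPM in RA cells, a ratio of 2.06 and 1.58 without the 4 barcodes. Ifng, the signature cytokine of this lineage, had 39 UMIs in 19 butyrate cells and 26 UMIs in 12 RA cells, a ratio of 1.72 (1.02 to 2.94) and 1.32 (0.782 to 2.25) without the 4 barcodes. Xcl1 lay close in both animals: its ratio was 1.16 with all cells and 0.906 (0.817 to 1.00) without the 4 barcodes. Per cell, Xcl1 ran from 0 over a median of 28.0 to 112 UMIs per 10000 in butyrate cells and from 0 over 25.8 to 155 in RA cells. Csf2, with 488 and 411 CPM in butyrate and RA cells, had a ratio of 1.19 and 0.936 without the 4 barcodes.

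**Figure D4:**
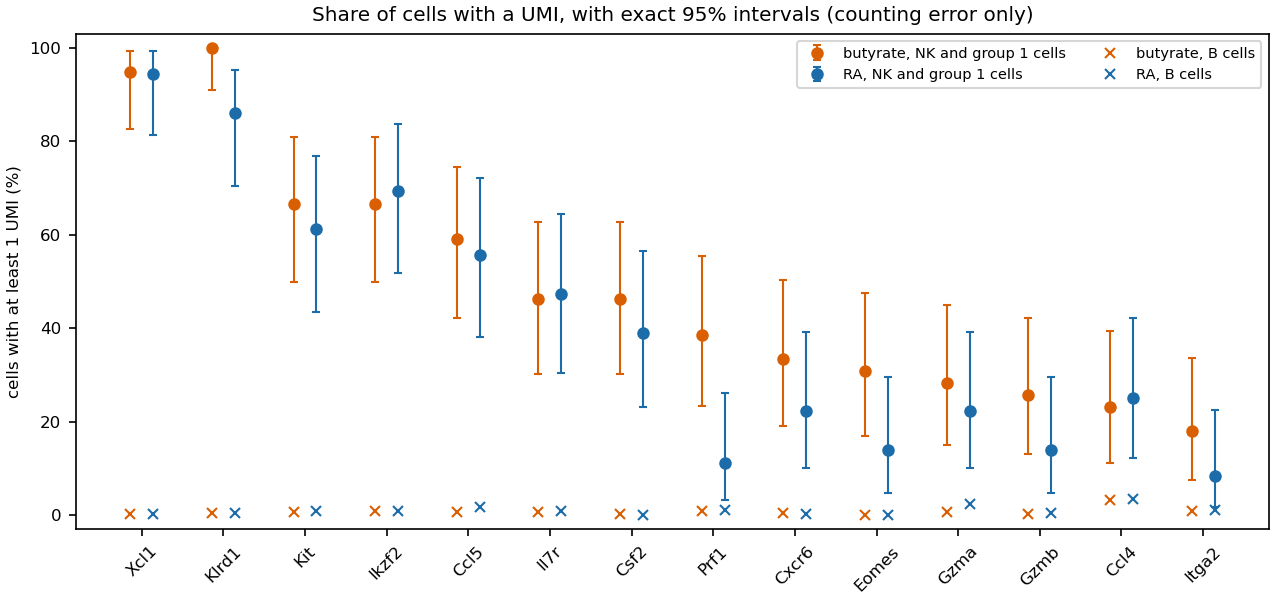
Share of cells with at least 1 UMI of 14 genes in butyrate (orange) and RA (blue) NK and group 1 innate lymphoid cells (circles with exact 95% intervals) and in B cells (crosses). Xcl1 and Klrd1 lie highest, the intervals of the libraries overlap for every gene drawn, and for Prf1 the shares were 38.5% in butyrate and 11.1% in RA cells.

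Activating receptors and adaptors had 13 of 15 genes higher and a median of 0.36, or 0.14 with 10 of 14 higher without the 4 barcodes. Cd226 (DNAM-1, a receptor for stress ligands) had 67 UMIs in 24 butyrate cells and 24 UMIs in 15 RA cells, a ratio of 3.20 (1.98 to 5.33) and 2.56 without the 4 barcodes. Crtam, an adhesion receptor of activated killer cells, had 64 UMIs in 14 butyrate cells and 25 UMIs in 10 RA cells, a ratio of 2.93 (1.82 to 4.86) and 2.68 without them, with 26 of the butyrate UMIs in 1 cell. Syk, a kinase downstream of these adaptors, was the farthest on the other side, with 4 UMIs in butyrate and 19 UMIs in RA cells, or 12 without the 4 barcodes.

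The common adaptors lay closer together. Tyrobp had 917 and 759 CPM in butyrate and RA cells, Fcer1g (the Fc receptor gamma chain) 719.6 and 651 CPM, and Hcst (DAP10) 659.6 and 524 CPM. Their ratios were 1.21, 1.11 and 1.26 with all cells and 0.959, 0.884 and 1.01 without the 4 barcodes. Klrk1 (NKG2D, a receptor for stress ligands) had 463 CPM in butyrate and 438 CPM in RA cells, and its ratio of 1.06 turned to 0.903 (0.684 to 1.19) without them.

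Inhibitory receptors had 7 of 10 genes higher and a median of 0.29, or 5 of 10 and 0.02 without the 4 barcodes. Klrd1 had 745 CPM in butyrate and 546 CPM in RA cells, a ratio of 1.36 (1.09 to 1.71) and 1.06 (0.846 to 1.33) without the 4 barcodes. Klrc1 (NKG2A, its inhibitory partner) had 334 CPM in butyrate and 262 CPM in RA cells, a ratio of 1.28 that was 0.993 without them. Klri2, which stood in this list but pairs with Klre1 in an activating receptor, was lower, with 40 UMIs in 12 butyrate cells and 71 UMIs in 16 RA cells, a ratio of 0.645 (0.427 to 0.964) and 0.495 (0.327 to 0.739) without the 4 barcodes. Klri1, the partner of Klre1 in the inhibitory receptor, had 18 and 39 UMIs in butyrate and RA cells, a ratio of 0.528 and 0.439 without the 4 barcodes.

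The regulators of lineage showed a spread around even. Of 19 transcription factors with at least 20 UMIs, 11 were higher, with a median of 0.24, or 10 of 18 and 0.04 without the 4 barcodes. Eomes itself had 27 UMIs, or 116 CPM (76.2 to 168), in butyrate cells and 14 UMIs, or 52.4 CPM (28.6 to 87.9), in RA cells, a ratio of 2.21 (1.12 to 4.56) that was 1.69 (0.858 to 3.50) without the 4 barcodes. Klf2, a factor of circulating lymphocytes, had 351 CPM in butyrate and 172 CPM in RA cells, a ratio of 2.04 (1.41 to 2.996), and 1.76 (1.19 to 2.62) without the 4 barcodes.

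Lower in butyrate cells were Ikzf2 and Zbtb16. Ikzf2 had 165 UMIs in 26 butyrate cells and 302 UMIs in 25 RA cells, so the share of cells was alike but the level was 707 CPM (603 to 823) in butyrate and 1129.7 CPM (1006 to 1265) in RA cells. Its ratio was 0.626 (0.514 to 0.759), and 0.510 without the 4 barcodes. Per cell, Ikzf2 had a median of 6.15 and a highest value of 21.3 UMIs per 10000 in butyrate cells, and a median of 8.36 and a highest value of 53.3 in RA cells. Zbtb16 (PLZF, a factor of innate lymphoid precursors) had 4 UMIs in 3 butyrate cells and 21 UMIs in 10 RA cells, a ratio of 0.218 (0.0544 to 0.646) and 0.270 without the 4 barcodes. Runx3, needed by NK cells in mice, had a ratio of 0.747 (0.582 to 0.957) and 0.614 without them. Tbx21 had one of 0.751 (0.412 to 1.34) and 0.595 without them.

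Both lists that divide the lineage had medians above 0, as had all genes with at least 20 UMIs. Over all genes the median was 0.07 with 54.4% higher, or 0.00 with 50.3% higher without the 4 barcodes. Of 17 conventional NK genes, 8 had at least 20 UMIs and 7 of these were higher in butyrate cells, with a median of 0.64, or 6 of 8 and 0.50 without the 4 barcodes. Itga2 (CD49b, an integrin of NK cells) had 19 UMIs in 7 butyrate cells and 4 UMIs in 3 RA cells, or 3 UMIs without the 4 barcodes. A UMI of Itga2 was found in 17.9% of butyrate and 8.33% of RA members, against 17.6% of butyrate and 21.2% of RA epithelial cells. It had 210 CPM with and 19.1 CPM without Eomes in butyrate cells. In RA cells it had 0 UMIs with and 4 UMIs without Eomes, too few to compare. Of the group 1 innate lymphoid genes, 11 of 13 were higher, with a median of 0.28. Without the 4 barcodes 7 of 13 were higher, with a median of 0.07, close to the values over all genes. Within the second list, Cxcr6 had 43 UMIs in 13 butyrate cells and 16 UMIs in 8 RA cells, a ratio of 3.08 (1.70 to 5.85) and 2.52 without the 4 barcodes, while Itga1 (CD49a, a collagen-binding integrin of resident cells) had 8 UMIs in 6 butyrate cells and 26 UMIs in 11 RA cells, a ratio of 0.352 (0.138 to 0.801) and 0.293 without them. S1pr5 and Klra8 of the first list and Zfp683 of the second were at 0 in both libraries.

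Cytokine receptors were close to even, with 12 of 20 higher and a median of 0.12, or 8 of 19 and −0.12 without the 4 barcodes. Il2rb, the interleukin-2 and interleukin-15 receptor chain on which NK cells depend, had 1431 CPM in butyrate and 1036 CPM in RA cells, a ratio of 1.38 (1.17 to 1.62) and 1.12 (0.953 to 1.33) without the 4 barcodes. Il12rb2 had a ratio of 1.07 (0.869 to 1.31), which turned to 0.908 (0.735 to 1.12) without them. Stat4, which carries the interleukin-12 signal, had 715 CPM in butyrate and 823 CPM in RA cells, a ratio of 0.869 and 0.723 without them. Kit, counted with no list of this kind, had 117 UMIs in 26 butyrate cells and 123 UMIs in 22 RA cells, a ratio of 1.09 (0.838 to 1.41), which turned to 0.878 (0.674 to 1.14) without the 4 barcodes.

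Homing and adhesion genes had 13 of 14 higher and a median of 0.51, or 9 of 14 and 0.20 without the 4 barcodes. Itgb1, Cd69 (an activation and residency antigen) and Cxcr4 (a receptor for stromal chemokine) had ratios of 1.47, 1.37 and 1.04, and 1.41, 1.11 and 0.8296 without the 4 barcodes, so Cxcr4 turned. S1pr1, the receptor by which lymphocytes leave tissues, was at 0 in all 75 cells, which by a floor of 3 counts allows a UMI in up to 7.69% of butyrate and 8.33% of RA cells and sets no limit on the cells that express it.

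Interferon target lists rested on few genes. For type I interferon 4 of 7 genes were higher, with a median of 0.47, or 3 of 5 and 1.32 without the 4 barcodes. The farthest gene was Ifi27l2a, with 12 UMIs in butyrate and 279 UMIs in RA cells, but 260 of those RA UMIs were in 1 cell, and 13 were left without the 4 barcodes. Bst2 (tetherin, a block to virus release) had 20 UMIs in 11 butyrate cells and 3 UMIs in 3 RA cells, a ratio of 7.63 (2.26 to 40.1) and 5.86 without them. For interferon gamma 3 of 6 genes were higher, with a median of −0.14 that turned to 0.58, with 3 of 4 higher, without them. Class I antigen presentation had 13 of 15 genes higher with a median of 0.28, or 0.13 without the 4 barcodes, led by H2-T23 (Qa-1, the ligand of NKG2A), with 347 CPM in butyrate and 168 CPM in RA cells, a ratio of 2.06 (1.41 to 3.04) and 2.16 without them. H2-K1 and H2-D1, the classical chains, had ratios of 1.24 and 1.25, and 1.08 and 1.09 without them.

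Early response genes, which dissociation induces, had 11 of 22 higher and a median of −0.02, or 9 of 22 and −0.04 without the 4 barcodes. Junb had 1799 CPM in butyrate and 2151 CPM in RA cells, and Jund 1859 CPM in butyrate and 946 CPM in RA cells, with ratios of 0.836 and 1.96, and 0.748 and 1.76 without them. For heat shock genes 9 of 12 were higher, with a median of 0.20, and −0.02 without the 4 barcodes. Cell cycle genes had 1 of 6 higher and a median of −1.40, or −1.57 with 1 of 6 without the 4 barcodes, but the deep RA cell held 21 of 22 Ube2c UMIs, and 18 of 19 Cenpf and 49 of 74 Tubb5 UMIs also lay in 1 RA cell each, so this list rested on very few cells. Pcna, the exception, had 43 UMIs in 26 butyrate cells and 22 UMIs in 15 RA cells, or 16 UMIs without them.

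Genes through which butyrate is sensed, carried or acts were barely detected. Of 20 such genes 4 had at least 20 UMIs, Ahr, Bsg, Hdac1 and Hdac4, with 3 higher and a median of 0.20, or 3 of 3 and 0.30 without the 4 barcodes. The receptor Ffar2 and the transporter Slc5a8 had 0 UMIs in butyrate cells and 1 UMI each in RA cells (0 without the 4 barcodes), so neither could be compared at this depth. Glycolysis genes had 8 of 14 higher and a median of 0.13, or 7 of 12 and 0.33 without them.

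**Figure D5:**
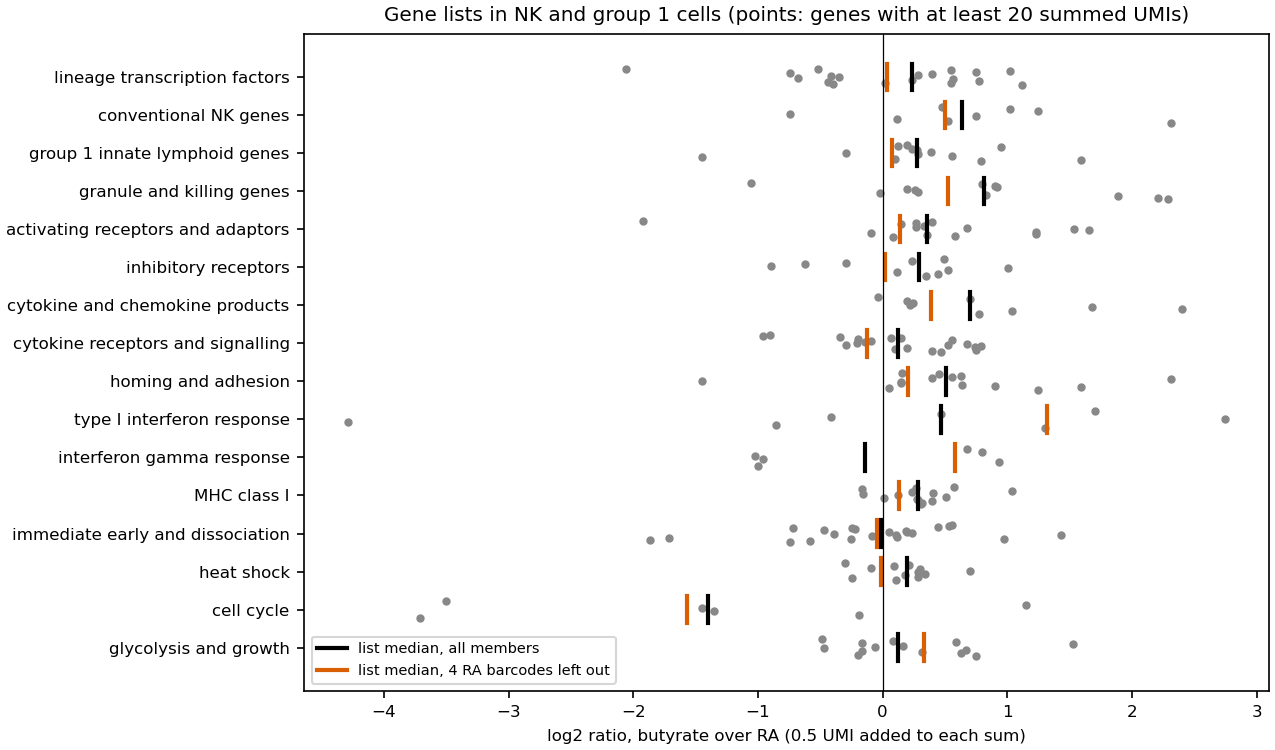
Log2 ratios of butyrate over RA, 1 point a gene with at least 20 summed UMIs, for each gene list, with the list median over all members (black) and without the 4 RA barcodes of foreign content (orange). The granule list has a median of 0.81, or 0.52 without those barcodes, and the cell cycle list, at −1.40, rests on very few RA cells.

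The genes lowest in butyrate cells described the foreign barcodes. The 10 lowest named genes were Cfd, Fabp4, Lpl, Car3, Cyp2e1, Dcn, Pck1, Mgst1, Cidec and Ghr, genes of fat and connective tissue, all at 0 in butyrate cells. Cfd had 1678 RA UMIs, of which 1677 were in 1 cell, and it was at least 488-fold lower in butyrate cells against a floor of 3 counts over the group. Without the 4 barcodes, the lowest genes included Lrmda, with 23 UMIs in 9 butyrate cells and 83 UMIs in the RA cells left, and Plac8, a small protein of leukocytes, with 40 UMIs in 7 butyrate cells and 104 UMIs in the RA cells left. Among the highest, Plek (pleckstrin, a signalling protein of blood cells) had 59 UMIs in 23 butyrate cells and 19 UMIs in 10 RA cells, a ratio of 3.56 (2.09 to 6.32) and 2.88 without them. Atf6, a sensor of endoplasmic reticulum stress, had 37 UMIs in 21 butyrate cells and 13 UMIs in 9 RA cells, a ratio of 3.26 (1.69 to 6.68) and 4.64 without them.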

How the data were processed

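The deposited files hold raw UMI counts per gene and barcode of 2 droplet libraries, made with 3' chemistry per the labels. Cell Ranger 6.0.1, Seurat 4.0.3 and 4.0.4 and mm10 are named in the submitters' processing notes, while Cell Ranger 7.1.0 is named per the file headers. Whether intronic reads were counted is not given in the sources used here. All barcodes held 67894477 UMIs (9959 barcodes) in the butyrate library and 61912439 UMIs (10140 barcodes) in the RA library, and no free-RNA correction was made.

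The members and the gene lists were chosen with earlier results of these data known. No doublet caller was run: the Cd79a and Epcam limits, a ceiling of 20000 UMIs and a limit on other-lineage genes were used instead, the last 2 as alternatives. CD8 T cells, group 3 innate lymphoid cells and B cells were also set by marker counts, and results of some genes are not reported here. UMIs were summed over the members of each library and divided by the sum (CPM); 0.5 was added to sums for log2 ratios and for counts past 2-fold. List medians used genes with at least 20 summed UMIs, and 30 lists with 392 genes (389 in the files) were kept. Coordinates are GENCODE M21 on GRCm38, where 31107 of 31253 gene identifiers were found.

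The text names the 10 genes at each end of the ratios with 50 or more UMIs and a ratio interval that leaves out 1, without mitochondrial, ribosomal, immunoglobulin, receptor segment, hemoglobin, sex-linked and unnamed genes and genes under 10% of their level in other cells. Also named were the 4 most abundant and 2 farthest genes per list, the marker genes and the genes of the Eomes split. Other genes in the text, and those of the 4 foreign barcodes, were chosen after their values were seen. Alternatives changed the mitochondrial limit, UMI minimum, Cd3 and marker sums, scaling, cell weights, thinning, UMI minimums of genes and the foreign barcodes. Ratios and intervals were tested on simulated Poisson totals of each gene and library. UMIs were not clustered in cells there, so that test cannot show how the intervals do with the spread between cells. Python 3.11.15, numpy 2.4.6, scipy 1.17.1, pandas 2.3.3 and matplotlib 3.10.9 were used.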

Additional observations from a re-analysis of the deposited data

How the results depend on the processing

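No paired analysis was possible because each group has 1 library and the labels share no replicate numbers that could pair animals. The ratios of the member share, of the share among T and innate lymphoid cells and of the share with Eomes moved by less than their intervals under every alternative run. The number of genes at least 2-fold higher in butyrate cells was 41, and 25 without the 4 foreign RA barcodes, 9 with cells thinned to 2000 UMIs, 177 with a minimum of 20 UMIs and 12 with a minimum of 100. The number at least 2-fold lower was 52, and 27 with a marker sum of 3 or more, 23 without members over 20000 UMIs, 19 without members with other-lineage UMIs, 20 without the foreign barcodes, 8 thinned, 299 with a minimum of 20 and 25 with a minimum of 100. Of genes past 2-fold, 44.1% were higher in butyrate cells, and 55.6% without the foreign barcodes, 54.9% without members over 20000 UMIs and 59.6% without those with other-lineage UMIs. The log2 ratio of Tubb5 turned to 0.35, 0.76 and 0.35 without members over 20000 UMIs, without other-lineage UMIs and with thinning. That of Xcl1 turned to −0.21 and −0.20 under the first and second of these, to −0.14 without the foreign barcodes, −0.060 with equal weight per cell and −0.17 with thinning. Rora turned to −0.044 and Ifng to −0.087 without members with other-lineage UMIs. Of the 754 single-gene and list values, 671 moved by less than their interval, 73 by more, and the 10 above changed sign although the interval of all cells left out 1. Counting also values whose interval took in 1 and list medians, 47 stood on the other side of even. They were 20 of 549 gene values and 27 of 205 list medians. Of these, 4 of 46 gene values and 3 of 16 list medians came from leaving out the foreign barcodes. The alternatives covered only some of the genes in the text, and more of the ratios given above turned without these barcodes. The causes were not tested. Depth limits most genes: a count of 0 allows up to 12.8 CPM in butyrate and 11.2 CPM in RA members.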

Other observations

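Some values outside the comparisons may be of use. Cd7, a lymphocyte surface protein, had 74 UMIs in 22 butyrate cells and 73 UMIs in 22 RA cells, a ratio of 1.16 and 1.02 without the 4 foreign RA barcodes. S100a4, a calcium-binding protein of motile leukocytes, had 149 UMIs in 27 butyrate cells and 72 UMIs in 18 RA cells, a ratio of 2.37 (1.78 to 3.18) and 1.87 without them. Trdc, the constant region of the T cell receptor delta chain, which NK cells can transcribe without rearrangement in mice, had 20 UMIs in 10 butyrate cells and 9 UMIs in 7 RA cells, none of them foreign. Calca, which encodes calcitonin gene-related peptide, had 20 UMIs in 1 butyrate cell and 22 UMIs in 2 RA cells, or 18 UMIs without the foreign barcodes. Areg, the growth factor amphiregulin, had 1 UMI in butyrate cells and 10 UMIs in 3 RA cells, a ratio of 0.114 (0.00264 to 0.805) and 0.1098 without them. Tigit, a checkpoint receptor, had 12 UMIs in 11 butyrate cells and 3 UMIs in 3 RA cells, a ratio of 4.58 (1.24 to 25.3) and 3.51 (0.948 to 19.4) without them.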
